A study of Gallus gallus with 28 samples.

Results

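FASN and ACACA, the enzymes that make palmitate, were followed in the livers of chickens (Gallus gallus) from a lean line and from a fat line. They were found by gene symbol in the annotation of a printed cDNA array, which assigned 9 of its 1728 spots to them, 6 to FASN and 3 to ACACA. Each clone was printed as 3 spots, so these 9 spots made 3 of the 576 printed positions: FASN in printing blocks 3 and 7, and ACACA in block 4. The blocks are the first number of a spot's ID and serve here as names of the positions. Both FASN positions carried the same cDNA. The samples were 10 RNA pools, namely pools 1 to 5 of the lean line and pools 6 to 10 of the fat line. A pool joined liver RNA of 4 chickens, with no treatment named in the labels. The labels used here give no age, sex, diet or feeding state for either line. Each pool was read on 3 arrays, except pools 3 and 8 with 2, for 28 arrays in all. Every array set a pool, labelled with Cy5, against 1 common reference made of RNA from all 10 pools, labelled with Cy3.

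Fatty acid synthesis in the liver starts from acetyl-CoA. ACACA (acetyl-CoA carboxylase alpha) carboxylates acetyl-CoA to malonyl-CoA, which is the committed step and also gives a molecule that blocks entry of fatty acids into mitochondria. FASN (fatty acid synthase) then joins acetyl-CoA and malonyl-CoA units, with NADPH as the reductant, until palmitate is released. In birds the liver is the main site of this synthesis, and the fat stored in adipose tissue is largely made there. Both genes are known targets of SREBF1, a transcription factor that responds to insulin, and of thyroid hormone.

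The values are log2 ratios of a pool to the reference. They were averaged over the spots of a position and then over the arrays of a pool. The reference was made of these same pools, but not every position centred on 0. The lean and fat means were -0.00489 and 0.49 for ACACA, -0.08 and 0.41 for FASN in block 7, and -0.51 and 0.36 in block 3. So 0 can be offset for a position, and above or below the reference means here above or below 0. A constant offset leaves fat minus lean and the correlations unchanged. The values rank pools for 1 gene and say nothing of which of the genes is more abundant. The files do not state the direction of the ratio, which is likely sample over reference given the order of the channels in the labels. If it ran the other way, every difference between the lines given here would change sign, while every correlation between genes would stay as it is. In pools of whole liver, fewer cells of a type and less RNA per cell cannot be told apart. FASN had a value in 74 of 84 spot readings in block 3 and in 80 of 84 in block 7, and ACACA had 75 of 84, against 36.7% of readings filled over the whole table. The missing readings of FASN in block 3 were all in the lean line, while those of the other positions fell in both lines. In block 3, lean pool 4 had no value on its first array. Only 1 spot had a value on the first array of pool 3 and on the third of pool 5. The readings of the 3 positions lay between -1.26 and 2.83. The arrays had values for 450 to 741 spots each and array medians between -0.06 and 0.07.

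At its block 3 position FASN stood at -0.25 in lean pool 1, -0.59 in pool 2, 0.02 in pool 3, -1.01 in pool 4 and -0.74 in pool 5. In the fat line the ratio was -0.23 in pool 6, 0.70 in pool 7, 0.38 in pool 8, 0.70 in pool 9 and 0.22 in pool 10. The fat pools were thus above the reference except pool 6, and the lean pools below it except pool 3. The lines overlapped only through these pools: 4 of 5 fat pools lay above the highest lean pool, and 4 of 5 lean pools below the lowest fat pool. Lean pools averaged -0.51 ± 0.41 and fat pools 0.36 ± 0.39 (SD, n = 5 each). Fat minus lean was 0.87 ± 0.24 (standard error), which is 1.83-fold with a 95% interval of 1.27 to 2.63. In the limma fit across all 297 clones measured in at least 3 pools of each line, this difference did not pass after Benjamini-Hochberg adjustment (adjusted p = 0.239). With all arrays fitted as observations and the correlation within pools in the model, it did pass (limma adjusted p = 0.0354), with nearly the same difference of 0.87. That fit took a single correlation (0.173) for all clones, and the correlation of this position alone was not estimated. Its SD was 0.40 between pool means of a line and 0.42 between arrays of a pool. The medians over all tested clones were 0.32 and 0.38. If its own correlation was higher than 0.173, the fit gave too small a standard error. On pool values with at least 2 of 3 spots required, the difference was 0.86 (limma adjusted p = 0.0776). It was 0.90 with only the first arrays and 0.67 with only the second.

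At its block 7 position, the same cDNA gave 0.16 in lean pool 1, -0.22 in pool 2, 0.02 in pool 3, -0.16 in pool 4 and -0.21 in pool 5. The fat pools were at 0.15 (pool 6), 0.27 (pool 7), 1.36 (pool 8), 0.19 (pool 9) and 0.10 (pool 10). All 5 fat pools were above the reference, but pool 8 stood far from the others, and lean pool 1 was above fat pools 6 and 10. Lean pools averaged -0.08 ± 0.17 and fat pools 0.41 ± 0.54 (SD, n = 5 each). Fat minus lean was 0.50 ± 0.24 (standard error), which is 1.41-fold with a 95% interval of 0.981 to 2.03, and did not pass (limma adjusted p = 0.530). Without pool 8 it was 0.26. In pool 8 the first array read 0.53 and the second 2.20, and without the second array the difference was 0.33.

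The 2 positions of FASN thus agreed in direction and differed in pattern. The lean pools lay lower in block 3 than in block 7 by 0.43 ± 0.31, and the fat pools by 0.06 ± 0.62 (SD, n = 5 each). The lines did not differ detectably in this gap (difference 0.37, 95% interval -0.34 to 1.09, two-sided exact permutation p = 0.270). Pool 8 gave the widest gap, with block 7 higher by 0.98. Over the 10 pools the positions correlated with Pearson r = 0.565 (permutation p = 0.0678) and Spearman rho = 0.794 (permutation p = 0.00939). Among the 27 pairs of positions on the array that carried the same cDNA, from 21 cDNAs with values in all pools, the median r was 0.520 and the range -0.657 to 0.969. FASN lay close to that median, and 12 of the 27 pairs correlated more strongly.

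ACACA, the enzyme of the committed step, was at 0.14 in lean pool 1, -0.23 in pool 2, 0.35 in pool 3, -0.30 in pool 4 and 0.01 in pool 5. In the fat line it was at 0.12 in pool 6, 0.32 in pool 7, 1.01 in pool 8, 0.92 in pool 9 and 0.09 in pool 10. Every fat pool was above the reference, and pools 8 and 9 stood above all others. The remaining fat pools lay within the range of the lean ones. Lean pools averaged -0.00489 ± 0.27 and fat pools 0.49 ± 0.44 (SD, n = 5 each). Fat minus lean was 0.50 ± 0.22 (standard error), which is 1.41-fold with a 95% interval of 1.01 to 1.98. It did not pass (limma adjusted p = 0.524). With only the first arrays of the pools the difference was 0.52, and with only the second arrays 0.45. The difference was 0.37 without pool 8, 0.39 without pool 9 and 0.18 without both, the last a setting chosen after seeing the data.

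**Figure D1:**
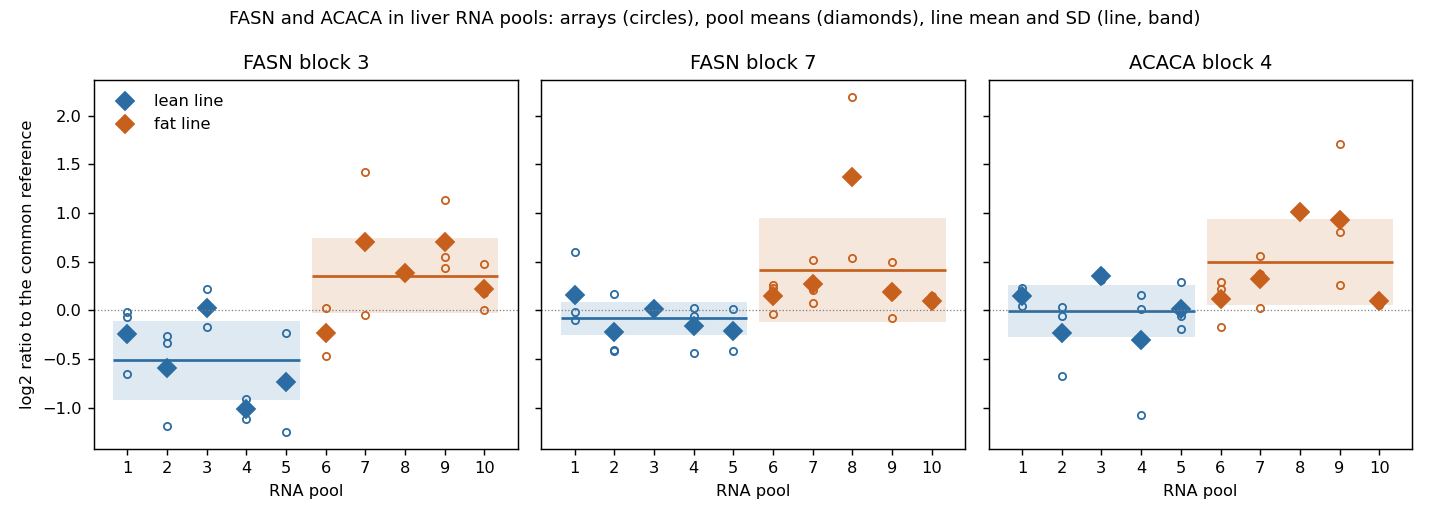
Log2 ratio to the common reference (vertical axis) in each RNA pool (horizontal axis) for FASN in blocks 3 and 7 and ACACA in block 4. Circles are arrays, diamonds pool means, horizontal lines and bands the mean and SD of the 5 pools of a line. FASN in block 3 separates the lines except for pools 3 and 6, FASN in block 7 has pool 8 at 1.36 far above the rest, and ACACA is highest in pools 8 and 9.

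Taken one position at a time, 0 of 3 passed the limma test, and of all 297 clones 0 passed (0% called at an adjusted p under 0.05). At an unadjusted p under 0.05 there were 28 clones (9.43%), of which 15 were higher in the fat line (5.05%). FASN in block 3 (p = 0.00409, the 4th smallest of the 297) and ACACA (p = 0.0469) were among the latter by limma, and FASN in block 7 was not (p = 0.0609). Two-sided exact permutation of the 10 pools gave p = 0.0159 for FASN in block 3, 0.0238 for FASN in block 7 and 0.0794 for ACACA, where the smallest p that the 252 arrangements allow is 0.00794. For 0 of the 3 positions were the lines free of overlap, compared with 2.59% of the 232 clones measured in every pool, or 1.72% with the fat line higher. In the fit on arrays with the correlation within pools (0.173), 1.68% of clones passed, and FASN in block 3 was 1 of these 5. ACACA differed there by 0.49 (limma adjusted p = 0.288) and FASN in block 7 by 0.45 (limma adjusted p = 0.319).

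The size of the difference between lines was next compared between the genes, by subtracting within each pool. The level of such a value still depends on the reference, which cancels in fat minus lean. The mean of both FASN positions minus ACACA averaged -0.29 ± 0.13 over the lean and -0.11 ± 0.25 over the fat pools (SD, n = 5 each). It was -0.18 in lean pool 1, -0.18 in pool 2, -0.33 in pool 3, -0.29 in pool 4 and -0.49 in pool 5. In the fat line it was -0.16 in pool 6, 0.16 in pool 7, -0.13 in pool 8, -0.48 in pool 9 and 0.06 in pool 10. All fat pools except pool 9 lay above all lean pools. The lines differed by 0.19 (95% interval -0.10 to 0.47, two-sided exact permutation p = 0.151). With each pool other than pool 9 left out in turn it lay between 0.12 and 0.21 (exact permutation p from 0.151 to 0.341). Leaving out pool 9, the 1 fat pool among the lean ones, gave 0.28, where full separation and the smallest possible p follow from the choice of pool and are no test. Without the second array of pool 8 it was 0.10 (exact permutation p = 0.492). By position, block 3 minus ACACA differed by 0.37 (95% interval -0.09 to 0.83, exact permutation p = 0.0952), and block 7 minus ACACA by -0.000778 (95% interval -0.46 to 0.46, exact permutation p = 1).

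Pools of a line came from different chickens, and the SD of the pool means was close in size to that of single repeated arrays. A pool mean averages its arrays, so it still holds some array error but less than a single array does. The similar sizes thus do not mean that pools differed no more than repeated arrays. The SD between spots of an array was 0.23 for FASN in block 3, 0.30 for FASN in block 7 and 0.26 for ACACA. Between arrays of a pool it was 0.42, 0.37 and 0.39 in the same order, and between the pool means of a line 0.40, 0.40 and 0.37. The medians over all tested clones were 0.38 between arrays and 0.32 between pools. Part of the spread between arrays went with array number. In every pool with values on both, the third array read lower than the first for FASN in block 3 and for ACACA. For FASN in block 7 it read higher in all such pools except pool 9. The F tests that follow held no term for array number. A limma F test on the arrays of the fat line gave unadjusted p = 0.0249 for ACACA and 0.0274 for FASN in block 7, and neither passed after adjustment over 202 clones (adjusted p = 0.173 and 0.178). At an unadjusted p under 0.05, 22.8% of clones did as much in the fat line. In the lean line the smallest p among the positions was 0.0821, for FASN in block 3 (limma adjusted p = 0.334). None of the 3 positions passed in either line, where 0.529% of 189 clones passed in the lean line and 0% in the fat line.

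FASN and ACACA went together from pool to pool. With FASN as the mean of both positions, the order of pools from high to low was 8, 7, 9, 10, 3, 6, 1, 2, 5 and 4 for FASN, and 8, 9, 3, 7, 1, 6, 10, 5, 2 and 4 for ACACA. In these averages pool 8 was highest for both, and pools 2, 4 and 5 of the lean line were lowest for both. Pools 3 and 8 had no array 3, which for ACACA and FASN in block 3 read below array 1 where both had values. Neither the averages nor the correlations from them, over all pools or within lines, were adjusted for array number. What such an adjustment would change was not tested. ACACA in pool 4 read 0.16 and 0.01 on arrays 1 and 2, and -1.07 on array 3. On arrays 1 and 2 it read 1.705 and 0.80 in pool 9, and 1.00 and 1.02 in pool 8. The correlation over the 10 pools was Pearson r = 0.894 (two-sided permutation p = 1.8e-04, Benjamini-Hochberg adjusted p = 0.00144 over 8 relations computed) and Spearman rho = 0.855 (permutation p = 0.00266). Leaving out pools 4 and 8, the farthest from the median of FASN, gave r = 0.770 over 8 pools (permutation p = 0.0180). With any 1 pool left out, r lay between 0.827 (without pool 8) and 0.929 (without pool 7). With only the first array of each pool, r was 0.703 (permutation p = 0.0310). With only the second array of each pool, r was 0.830 (permutation p = 0.00414). The values of r from a single array of each pool did not mix array numbers, but both genes then shared that array.

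The relation was also present inside the lines. After the mean of each line was subtracted from its pools, r was 0.845 (two-sided exact permutation within lines, p = 0.00688, adjusted p = 0.0138) and rho was 0.842 (exact permutation p = 0.00910). With 1 pool left out this r was lowest without pool 8, at 0.767. By position, ACACA correlated with FASN in block 3 at r = 0.803 (permutation p = 0.00459, adjusted p = 0.0122) and with FASN in block 7 at r = 0.780 (permutation p = 7.8e-04, adjusted p = 0.00312). Without the 2 pools farthest from the median of FASN at that position, these fell short of the threshold, with r = 0.655 (permutation p = 0.0695) and r = 0.613 (permutation p = 0.103), so each single position rests in part on those pools. Within lines they were r = 0.663 for block 3 (exact permutation p = 0.0508, adjusted p = 0.0678) and r = 0.664 for block 7 (exact permutation p = 0.0121, adjusted p = 0.0193). The positions of FASN correlated with each other within lines at only 0.233 (exact permutation p = 0.555).

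**Figure D2:**
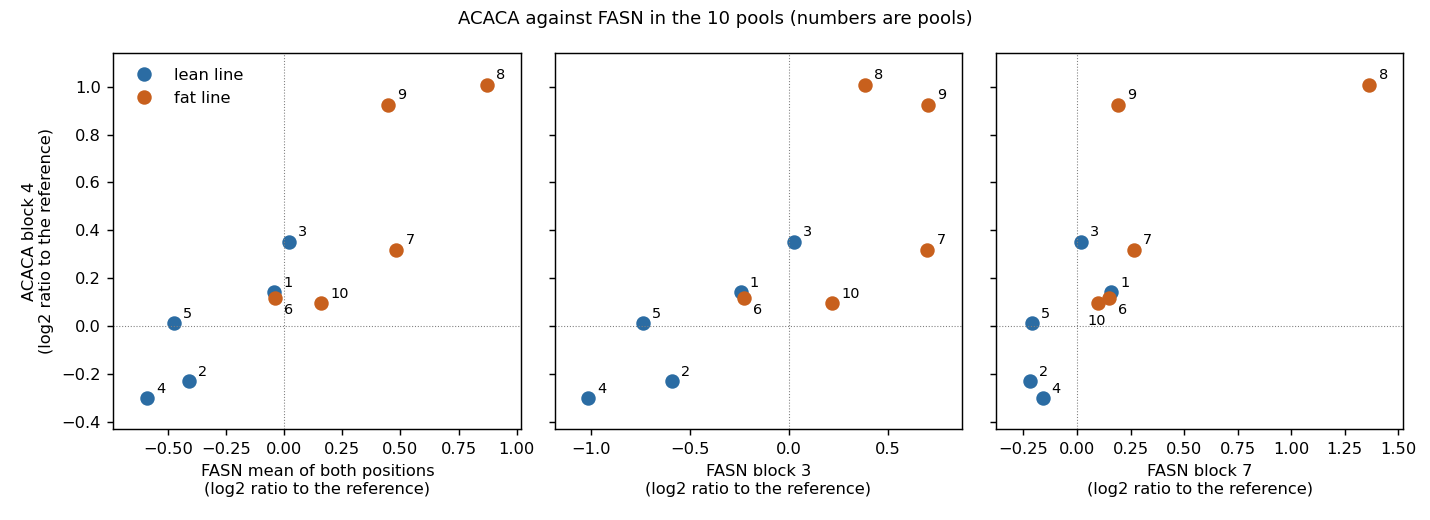
ACACA (vertical axis) against FASN (horizontal axes: mean of both positions, block 3, block 7) in the 10 pools, as log2 ratios to the reference, with lean pools in blue and fat pools in orange and each point numbered by pool. The pools rise along a diagonal in the left panel (r = 0.894), with pools 4, 2 and 5 at the lower end and pool 8 at the upper end.

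Both genes were read on the same arrays, so error of an array can enter both. Deviations of single arrays from the mean of their pool correlated at 0.495 between ACACA and FASN in block 3 (27 arrays), and at -0.139 between ACACA and FASN in block 7 (28 arrays). Between the FASN positions they correlated at -0.297 (27 arrays). Only the pool mean was removed, so these deviations still held the trend with array number given above. How much of the correlations came from that trend was not tested. To set the genes against each other on different arrays of a pool, FASN was taken from the first array and ACACA from the others. This was a choice made after seeing the data. Then r was 0.724 over the 10 pools (permutation p = 0.0158) and 0.511 within lines (exact permutation p = 0.162). In pool 4 FASN in block 3 had no value on the first array, so FASN there was block 7 alone. With ACACA from the first array and FASN from the others, r was 0.612 (permutation p = 0.0822) and 0.413 within lines (exact permutation p = 0.402). The relation across separate arrays was thus positive both ways but passed one way only, and within lines neither way. Each gene then rested on fewer arrays of a pool, so its values held more array error. Why r was lower than with all arrays was not tested.

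Set against the rest of the array, the likeness of the genes was near the top. Over the 229 other clones with values in all pools, r with the FASN mean had a median of 0.05, with 90% of clones between -0.60 and 0.63. Only 1 of them was more like FASN than ACACA was, and 0 were more like ACACA than FASN was. Within lines these counts were 0 and 2. The FASN mean averages 2 positions, while the other clones are single positions. Against single positions of FASN, 2 clones (block 3) and 3 clones (block 7) were more like FASN than ACACA was, and 6 and 5 within lines. These are descriptions of 10 shared pools, in which clones also share arrays.

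The clone above ACACA was of SCD, the desaturase that puts the first double bond into stearate and palmitate (r = 0.917, and 0.848 at its other position). Both SCD positions lie in block 3, as does 1 FASN position. With FASN in block 7 they correlated at 0.706 and 0.676, and with ACACA at 0.873 and 0.836. After SCD, the named genes most like FASN were FH, the fumarase of the citric acid cycle (r = 0.797), EIF4EBP1, an inhibitor of translation initiation (0.718), THRSP, a lipogenic nuclear protein (0.712), and MDH2, the mitochondrial malate dehydrogenase (0.693). Other positions of the last 3 were less alike: 0.345 for THRSP, -0.09 for EIF4EBP1 and from -0.305 to 0.683 over 4 for MDH2. Without pool 8 EIF4EBP1 was at 0.482 and MDH2 at 0.499. Those most like ACACA after SCD were CAT, the catalase that breaks down hydrogen peroxide (0.802, and 0.770 at its other position), FADS2, the delta-6 desaturase (0.795), FBP1, a gluconeogenic phosphatase (0.791), and ELOVL6, the elongase of palmitate (0.788).

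**Figure D3:**
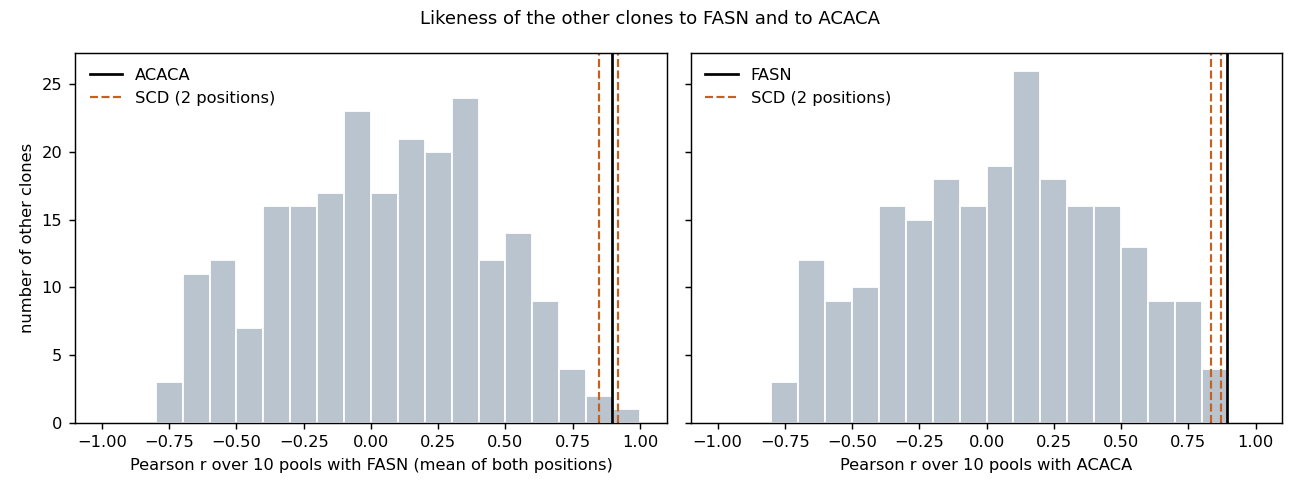
Number of other clones (vertical axis, 229 in all) by their Pearson r over 10 pools (horizontal axis) with FASN as the mean of both positions (left) or with ACACA (right). The solid line marks the other gene of the pair at r = 0.894 and the dashed lines mark the SCD positions, all at the upper end of the distribution.

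The steps around palmitate synthesis were described from 4 lists of genes, chosen with earlier results of these data known. Supply of precursors and NADPH had 5 of 17 listed genes on the array, at 9 positions, of which 6 were higher and 3 lower in the fat line and 0 passed in either direction. Their median difference was 0.08, against 0.03 over all 297 clones, of which 163 were higher and 134 lower in the fat line. MDH2 differed by 0.37 (standard error 0.16) at its position with the smallest p, but its 5 positions ran from -0.37 to 0.52. PDHA2, a subunit of the pyruvate dehydrogenase complex that makes acetyl-CoA, differed by 0.37 (standard error 0.19), and by 0.22 without pool 2. PGD, an NADPH-producing enzyme of the pentose phosphate pathway, was at -0.15 (standard error 0.41) in 4 pools of each line and had no settled sign.

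Other synthesis enzymes and those that use palmitate had 4 of 14 genes on the array at 5 positions, 4 of them higher in the fat line and 1 lower, with 0 passing and a median of 0.43. SCD differed by 0.89 (standard error 0.25) and 0.59 (standard error 0.24) at its positions. In the fit on arrays with the correlation within pools, the first of these positions passed, as FASN in block 3 did (0.84, limma adjusted p = 0.0416 for SCD). FADS2 differed by 0.43 (standard error 0.24) and ELOVL6 by 0.30 (standard error 0.16). FADS2 was at 0.24 without pool 8, and ELOVL6 at 0.18 without pool 9. GPAM, which starts triglyceride synthesis by attaching a fatty acyl group to glycerol 3-phosphate, was at -0.08 (standard error 0.31). The difference of SCD in its clone with the smaller p was thus as large as that of FASN in block 3. Those of FADS2 and ELOVL6 were nearer to ACACA and to FASN in block 7, both at 0.50. These gaps were not tested.

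The regulators had 5 of 14 genes on the array at 8 positions, 6 of them higher in the fat line and 2 lower, with 0 passing and a median of 0.06. In block 16, where 4 lean and 3 fat pools had values, SREBF1 differed by 0.97 (standard error 0.26), or 0.45 with the array number as a block. It differed by 0.37 in block 15 and by 0.02 in block 3. These positions correlated with the FASN mean at 0.729 (7 pools), 0.585 and -0.05. THRSP differed by 0.23 and -0.06, and SREBF2, the relative of SREBF1 that drives cholesterol synthesis, by -0.19 (standard error 0.23). The oxidation list, the opposing pathway, had 3 of 12 genes at 5 positions, with 2 higher and 3 lower, 0 passing and a median of -0.06. CPT2, an enzyme of the carnitine shuttle that malonyl-CoA holds back at its first step, differed by 0.95 (standard error 0.46). Its r was 0.285 with FASN and 0.087 with ACACA over the 10 pools. PPARA, the nuclear receptor that induces oxidation genes, was measured in 5 lean and 4 fat pools and differed by 0.69 (standard error 0.57), with 0.38 without pool 3 and 1.13 without pool 2. ACAT1, the mitochondrial thiolase, differed by -0.17 (standard error 0.17) at its position with the smallest p, and by -0.07 without pool 7. Over the 4 lists the limma adjusted p of these named positions ran from 0.239 to 0.982 in the fit on pool values.

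**Figure D4:**
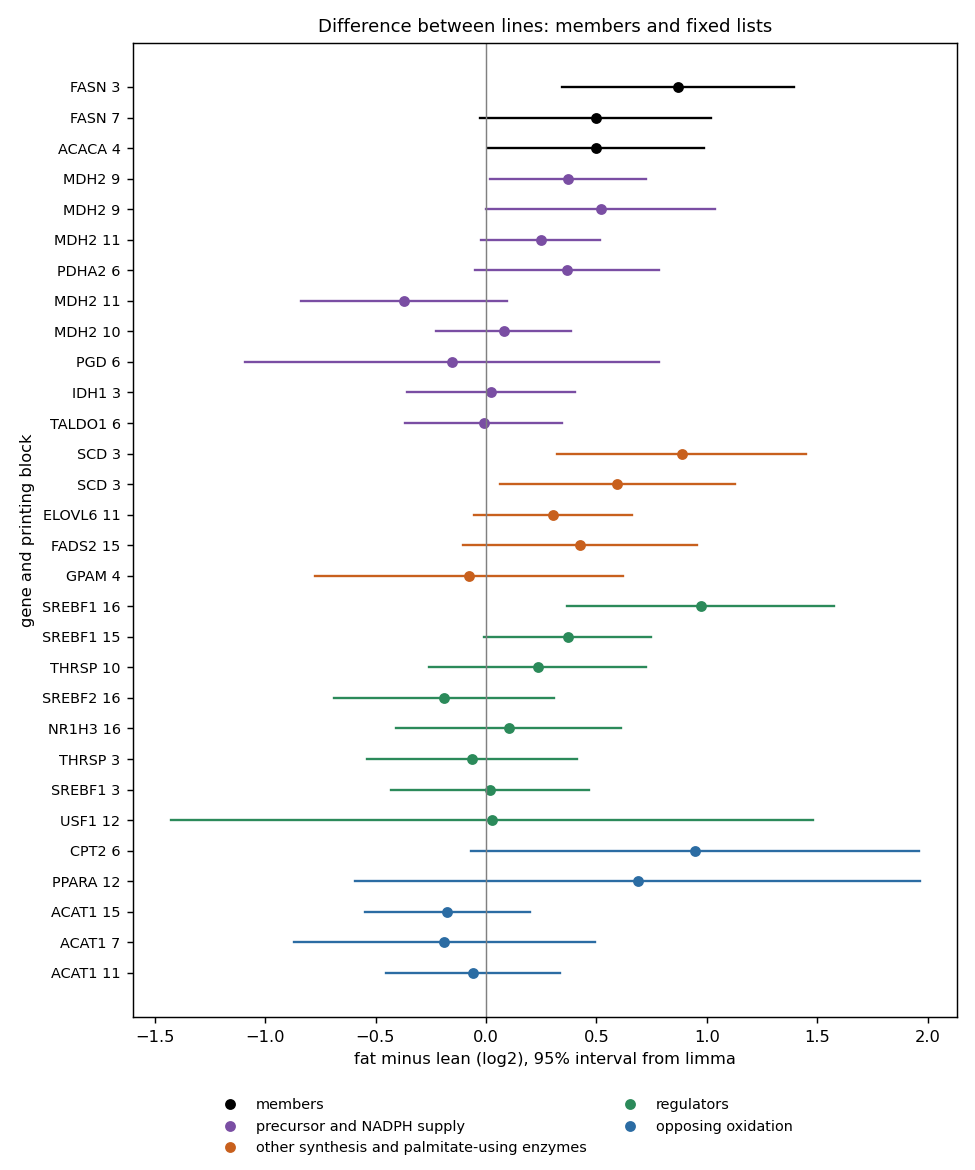
Difference between the lines, fat minus lean, on the log2 scale (horizontal axis) with 95% intervals from limma, for FASN and ACACA and for every position of the 4 lists (vertical axis, gene and printing block). FASN in block 3, SCD and SREBF1 in block 16 lie highest among positions whose interval is clear of 0. In this fit on pool values no position passed after adjustment over all clones.

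Of 11 hepatocyte markers, 6 were on the array and 5 had values, while 0 of the erythrocyte, leukocyte, stromal or adipocyte markers looked for were among the named clones. The hepatocyte markers had 10 tested positions, 3 higher and 7 lower in the fat line, with 0 passing (smallest limma adjusted p = 0.610) and a median difference of -0.18. All 5 positions of FABP1 were among the lower ones. Over all 297 clones, 163 were higher and 134 lower. Averaged over the 8 positions with all pools, they ranged from 0.02 to 0.38 in the lean and from -0.14 to 0.41 in the fat pools. FABP1, the liver fatty acid binding protein, ran from -0.46 to -0.03 over its 5 positions, whose r with the FASN mean went from -0.750 to 0.347. AHSG, a plasma protein, was at -0.30 (4 lean and 5 fat pools), and GC, the vitamin D binding protein, at 0.49 and -0.26. APOA1 and APOB, the main proteins of high-density and very low density lipoprotein, were at 0.43 (5 lean and 4 fat pools) and 0.03, and the ALB position had no value. The part of cell makeup in the differences of FASN and ACACA was not tested. The median difference between lines over the clones of the blocks concerned was 0.03 in block 3, -0.03 in block 4 and -0.03 in block 7.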

How the data were processed

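The authors deposited log2 ratios, 1 for each spot on each array, measured from poly(A)+ RNA (500 ng per labelling, per the labels' protocols). How they normalized them is not given in the sources used here. That the base is 2 was read from values up to 14.01, above the 11.1 that a natural log ratio of a 16-bit scanner could reach. Spots 3 rows apart in a block were taken as 1 clone and averaged, then arrays of a pool. Missing values stayed missing. All 618 annotated spots matched a current chicken gene entry (GRCg7b, used for names only), and 0 symbols changed. No coordinates or sequences are given.

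Lines were compared with limma 3.58.1 in R 4.3.3 on pool values (lmFit, eBayes, two-sided, Benjamini-Hochberg over 297 clones), checked on simulated data. In the fit on pool values and in the permutations the pools are the units. The F tests within a line rest on the spread between arrays of a pool. The fits on arrays take arrays as observations, with a single correlation within pools for all clones. Single values were tested by exact permutation of pools, and correlations by 100000 permutations or exactly within lines. The replicate numbers of the labels count arrays of a pool and do not pair lean with fat pools. Genes named were FASN and ACACA, up to 3 genes with the smallest p per list, and the 5 named genes most like each. GPAM, the hepatocyte markers and other SREBF1, SCD, MDH2 and THRSP positions were added after their values were seen. Members and lists were chosen with earlier results of these data known.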

Additional observations from a re-analysis of the deposited data

Results flagged for a closer look

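For FASN, ACACA and the genes named from the lists, 29 groups of 4 or 5 pools were checked. In 3 of them a pool lay far from the others of its line. The measure was its gap to the next pool as a share of the range of the group, 0.73 to 0.87 in these 3. Chance gives about 1 in 20 for a single group. The groups share the same pools and are not independent, so their number cannot be set against that rate. For FASN in block 7, fat pool 8 was at 1.36 and the next fat pool at 0.27. For ELOVL6, fat pool 9 was at 0.60 and the next at 0.03. For CPT2, fat pool 10 was at 1.77 and the next at 0.39.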

How the results depend on the processing

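The difference of FASN in block 3 kept its direction in all 26 settings tried (0.67 to 1.02), as did FASN in block 7 (0.25 to 0.58) and ACACA (0.18 to 0.60). FASN in block 3 passed with arrays as observations and the correlation within pools (0.87, limma adjusted p = 0.0354) and with a replicate block of array numbers (0.84, limma adjusted p = 0.00780). These fits, each with a single correlation shared by all clones, called 5 and 6 clones, and 0 were called in the other 24 settings. SCD, at its position with the smaller p, passed in both as well (limma adjusted p = 0.0416 and 0.0234). The replicate block changed no other call among the members, with FASN in block 7 at 0.46 (limma adjusted p = 0.314) and ACACA at 0.49 (limma adjusted p = 0.143). Without that block their limma adjusted p was 0.319 and 0.288. With it the standard error went from 0.214 to 0.174 for FASN in block 3 and from 0.196 to 0.159 for ACACA. For FASN in block 7 it was 0.193 without and 0.195 with the block. FASN minus ACACA between lines was 0.12 to 0.28 with each pool left out. It reached the smallest possible exact permutation p only without pool 9 (0.28) or without both pools 8 and 9 (0.32), where removing the 1 fat pool that overlapped the lean ones fixes that p, so these are no test. The correlation of FASN and ACACA kept its sign in 28 settings (0.612 to 0.929) and missed the threshold in 1, with ACACA from the first array and FASN from the others (0.612). PGD turned with the second arrays only (0.42), without pool 1 (0.13) and without pool 10 (0.00785), within a range of -0.56 to 0.13 with each pool left out. Among the genes named from the lists, the alternatives moved SCD between 0.58 and 1.11, FADS2 between 0.11 and 0.71, ELOVL6 between 0.16 and 0.42, SREBF1 in block 16 between 0.45 and 1.12, THRSP between 0.02 and 0.58, CPT2 between 0.38 and 1.11, PDHA2 between 0.21 and 0.48, PPARA between 0.38 and 1.13, SREBF2 between -0.32 and -0.08 and ACAT1 between -0.29 and -0.02. Centring each printing block, chosen after seeing the data, gave 0.79, 0.51 and 0.51 for FASN in blocks 3 and 7 and ACACA, and r = 0.839. The number of pools limits the precision, with a median standard error of 0.20 over clones.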
